A study of Mus musculus with 2 samples.

Results

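The Hox genes of paralog groups 9 to 11 were followed through single-nucleus RNA sequencing of injured mouse spinal cord, in which each RNA molecule is counted by its unique molecular identifier (UMI): Hoxa9, Hoxb9, Hoxc9 and Hoxd9 of group 9, Hoxa10, Hoxc10 and Hoxd10 of group 10, and Hoxa11, Hoxc11 and Hoxd11 of group 11. They are 10 of the 32285 genes of the matrices, which also hold 29 other Hox protein genes. They are every gene of these paralog groups in the matrices. The set was chosen by measured values, the level and detection of these genes in each library and each class of cells, so the ratios between libraries and classes below describe the members and test nothing.

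The first library, labelled injury core, and the second, labelled distal region, both came from male iNeuroD1GFP mice. The second region is called distal in the titles and peri-injury in the protocol. Both libraries share the genotype, a line named for NeuroD1, a proneural transcription factor, and GFP, and both share the tamoxifen. The sources used here name neither the promoter nor the cell type that drives the transgene. The mice were listed at an age of 8 weeks and injured at postnatal day 60. Tamoxifen (100 mg/kg/day) was given on days 5 to 8 post injury, and cords were taken on day 10. The series names 3 mice, and whether they were pooled is not stated. A single library per region leaves no replicate, so no p-value is given. All intervals are exact 95% intervals that cover counting error only. No uninjured cord and no mice without the transgene or tamoxifen were analysed here, and the labels give no cord level for either region. Cord level and distance from the injury cannot be told apart in the values that follow.

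Hox genes encode homeodomain transcription factors that sit in 4 clusters, HoxA to HoxD. Their order along each cluster follows the order in which they are used from head to tail. In the mouse spinal cord, Hoxc9 is known for setting the thoracic motor columns, group 10 genes for the identity of lumbar motor neurons, and group 11 genes for lumbar and sacral levels. Much of this pattern stays readable in adult cord cells, which makes the posterior genes a readout of cord level. The HoxB cluster has no gene of groups 10 and 11.

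Promoter sequences are shown for the HoxD members, which lie side by side on chromosome 2 in the order Hoxd11, Hoxd10, Hoxd9 and include Hoxd11, which had 437 UMIs in core neurons and 0 in distal neurons. RefSeq promoter windows on GRCm38.p6 matched 6 of the 10 members at 8 start sites. Hoxb9, Hoxc9, Hoxc10 and Hoxc11 are named only. Each line gives the 250 bases before the start on the plus strand, 5′ to 3′. Capitals mark matches on either strand to 5 motifs. TTTATG and its variant with C at the fifth base, TTTACG, are known for posterior Hox proteins, and TGATNNAT for Hox proteins paired with Pbx. The E-box CAGATG, with its variant CAGCTG, is of the kind NeuroD1 binds.
Hoxd11, first start, chr2:74679308-74679557: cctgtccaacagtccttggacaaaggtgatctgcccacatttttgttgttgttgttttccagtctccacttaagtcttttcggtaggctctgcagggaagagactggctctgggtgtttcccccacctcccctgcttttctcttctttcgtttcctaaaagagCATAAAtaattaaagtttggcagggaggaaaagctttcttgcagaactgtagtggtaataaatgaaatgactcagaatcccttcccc
Hoxd11, second start, chr2:74682073-74682322: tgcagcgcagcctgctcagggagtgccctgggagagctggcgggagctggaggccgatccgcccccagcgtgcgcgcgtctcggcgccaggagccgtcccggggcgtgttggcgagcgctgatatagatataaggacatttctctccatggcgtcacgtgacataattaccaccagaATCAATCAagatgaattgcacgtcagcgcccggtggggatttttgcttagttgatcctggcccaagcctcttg
Hoxd10, chr2:74691641-74691890: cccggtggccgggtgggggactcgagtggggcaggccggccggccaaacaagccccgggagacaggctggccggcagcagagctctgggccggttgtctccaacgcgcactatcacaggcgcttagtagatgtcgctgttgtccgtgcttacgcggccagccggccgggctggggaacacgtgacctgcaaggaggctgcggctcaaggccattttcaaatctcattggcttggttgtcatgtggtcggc
Hoxd9, chr2:74697513-74697762: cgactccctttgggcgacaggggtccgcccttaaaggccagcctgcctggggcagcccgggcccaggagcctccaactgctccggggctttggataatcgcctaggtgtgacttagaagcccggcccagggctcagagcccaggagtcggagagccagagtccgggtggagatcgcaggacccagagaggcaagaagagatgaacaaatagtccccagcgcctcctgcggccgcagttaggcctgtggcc
The first Hoxd11 window held 1 TTTATG, as CATAAA 87 bases before the start, and the second held 1 TGATNNAT, as ATCAATCA 73 bases before it. Over all 32851 windows of this length, TTTATG was found in 10.8%, TTTACG in 2.61%, TGATNNAT in 7.68%, CAGATG in 14.4% and CAGCTG in 13.001%. The Hoxd10 and Hoxd9 windows held none of the 5 motifs. They had a GC content of 65.6% and 65.2%, against a median of 52.4% over all windows.

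There were 16362 barcodes with 30469263 UMIs in the core library (median 1303 UMIs per barcode) and 7452 barcodes with 19049572 UMIs in the distal library (median 1743). The libraries shared 38 barcodes, and leaving these out gave core over distal ratios of 1.43 for group 9 and 16.3 for groups 10 and 11 in neurons, against 1.42 and 16.3 with them. The core library was mostly neuron-like: 9086 of its nuclei fell in neuron clusters and 6109 in clusters that varied little more than draws from 1 shared profile, called background-like here. The label of injury core stands against its few glia and immune cells, as it held 49 myeloid-like and 76 astrocyte-like nuclei, against 339 and 635 in the distal library, which also held 1983 neuron-like and 1664 oligodendrocyte-like nuclei. All 12 neuron markers were found in both libraries' neurons, at a summed 8005 CPM in core and 6750 CPM in distal neurons, where CPM is UMIs scaled to the same total in each group. Oligodendrocyte markers stood at 353 CPM in core and 1934 CPM in distal neurons, and their part in the ratios below was not tested. Cluster 1 alone held 4322 of the 9086 core nuclei in neuron clusters and 1035 of their 1816 UMIs of groups 10 and 11. Its dispersion, a measure of variation between nuclei, was 1.25, against a background-like limit of 1.2. Other neuron clusters stood at 1.26 to 1.57. At clustering resolution 2.0, 7770 core nuclei were background-like and 7531 neuron-like. Whether cluster 1 holds background was not tested. Core and distal below mean the libraries so labelled. Whether the labels were exchanged or the tissue was cut otherwise than stated was not tested, and exchanged labels would turn round every core over distal ratio.

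Across whole libraries, groups 10 and 11 were read almost entirely in the core library. They had 2380 UMIs in the core library (78.1 CPM), against 71 in the distal library (3.73 CPM), a ratio of 21.0 (16.6 to 26.9). Group 9 had 3699 core UMIs (121 CPM) and 1094 distal UMIs (57.4 CPM), a ratio of 2.11 (1.98 to 2.26). Single members of group 9 ran from a ratio of 1.38 for Hoxa9 to 3.75 for Hoxd9, and Hoxa10, at 11.2, was the lowest of group 10. Group 10 had 1696 core UMIs and 71 distal UMIs, while group 11 had 684 core UMIs and 0 distal UMIs. A count of 0 among 7452 barcodes allows a level of up to 0.194 CPM by the exact interval.

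Within neurons the same order held for levels set against the neurons' own UMI totals. The neuron sums were 22261061 UMIs in the core library and 6000555 in the distal library. Group 9 had 127 CPM (122 to 132) in core neurons, against 89.3 CPM (81.9 to 97.2) in distal neurons, a ratio of 1.42 (1.30 to 1.56). Groups 10 and 11 together had 81.6 CPM (77.9 to 85.4) in core neurons, against 5.00 CPM (3.37 to 7.14) in distal neurons, a ratio of 16.3 (11.4 to 24.3).

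**Figure D1:**
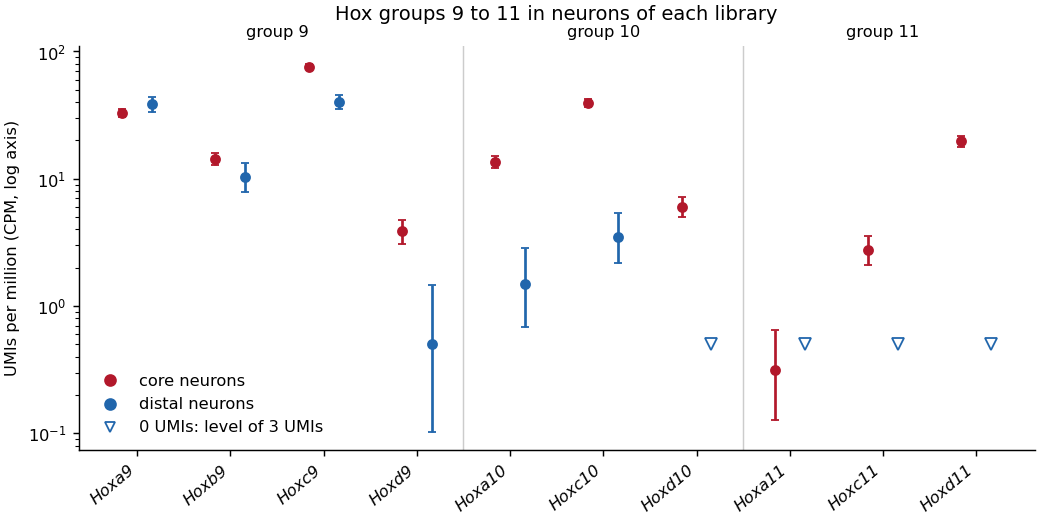
CPM of each member in core neurons (red, left) and distal neurons (blue, right) on a log axis, with exact Poisson 95% intervals; open triangles mark 0 UMIs at the level 3 UMIs would give. Hoxa9 lies at 32.9 CPM in core and 38.5 CPM in distal neurons, while Hoxd11 lies at 19.6 CPM in core neurons and at 0 in distal neurons.

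The group 9 genes split among themselves. Hoxa9, which in the mouse acts with the other group 9 genes in trunk and limb patterning, had 732 UMIs (32.9 CPM) in core neurons and 231 UMIs (38.5 CPM) in distal neurons, a ratio of 0.854 (0.736 to 0.995). It was the only member with a core value below its distal one, and its ratio was 0.938 after scaling by the trimmed mean of M values (TMM). Single neuron clusters went both ways for Hoxa9. Its ratio was 0.574 (0.414 to 0.798) in cluster 4, which held 72 of the 231 distal UMIs, and 1.67 (0.819 to 3.98) in cluster 17. The part of the cluster mix in the pooled Hoxa9 ratio was not tested. Hoxb9 had 318 UMIs (14.3 CPM) in core neurons and 62 UMIs (10.3 CPM) in distal neurons, a ratio of 1.38 (1.05 to 1.85). Hoxc9, the thoracic motor column gene, had 1690 UMIs (75.9 CPM) in core neurons and 240 UMIs (39.996 CPM) in distal neurons, a ratio of 1.90 (1.66 to 2.18). Hoxd9 stood with the next group: 86 UMIs (3.86 CPM) in core neurons and 3 UMIs (0.49995 CPM) in distal neurons, a ratio of 7.73 (2.56 to 38.2). Its distal value rests on 3 UMIs.

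The group 10 genes, known in the mouse for lumbar motor neuron identity and hindlimb innervation, were low but present in distal neurons, Hoxd10 apart. Hoxa10 had 301 UMIs (13.5 CPM) in core neurons and 9 UMIs (1.4999 CPM) in distal neurons, a ratio of 9.02 (4.69 to 19.9). Hoxc10 had 876 UMIs (39.4 CPM) in core neurons and 21 UMIs (3.4997 CPM) in distal neurons, a ratio of 11.2 (7.31 to 18.3). Hoxd10 had 134 UMIs (6.02 CPM) in core neurons and 0 in distal neurons, 12.04-fold the level of 3 distal UMIs (lower exact limit 9.66). Over the whole distal library, 1 Hoxd10 UMI was read, in an astrocyte-like nucleus.

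No group 11 UMI was read in the distal library. Hoxd11 had 437 UMIs (19.6 CPM) in core neurons and 0 in distal neurons, 39.3-fold the level of 3 distal UMIs (lower exact limit 31.8). Hoxc11 had 61 UMIs (2.74 CPM) in core neurons and 0 in distal neurons, 5.48-fold the level of 3 distal UMIs (lower exact limit 4.32). Hoxa11 had 7 UMIs (0.314 CPM) in core neurons and 0 in distal neurons, which is below the level of 3 distal UMIs (0.49995 CPM), so a difference was not detectable at this depth.

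By a rule of at least 2-fold among genes with at least 2 CPM in 1 library, 6 of the 9 members that could be assessed were higher in core neurons (Hoxd9, Hoxa10, Hoxc10, Hoxd10, Hoxc11 and Hoxd11) and 0 were lower. Hoxa11 did not reach the minimum. Over all 14625 genes assessed, 1.39% were at least 2-fold higher and 9.24% at least 2-fold lower in core neurons. The median log2 ratio was 2.95 over the 9 members and -0.06 over all genes assessed. Since the members were proposed from this difference, nothing is read from the count. Hoxc9, at 1.90, lay nearest below the 2-fold limit. Hoxc11 (5.48 against the level of 3 UMIs, on 0 distal UMIs) and Hoxd9 (7.73) were the lowest above that limit. TMM scaling moved every log2 ratio up by 0.14 and brought Hoxc9 to 2.09-fold, which made the count 7.

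The overlap of gene models limits some of these values. On GRCm38 the annotated span of Hoxc5 contains Hoxc9 (chr15:102976439-102985099) and Hoxc8 and overlaps Hoxc10 (chr15:102966796-102971893), all on the same strand, so the split of reads among these genes is uncertain. Hoxa11 (chr6:52242106-52245810) lies opposite its antisense RNA Hoxa11os, and the strand setting of the counting could not be taken from the labels.

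**Figure D2:**
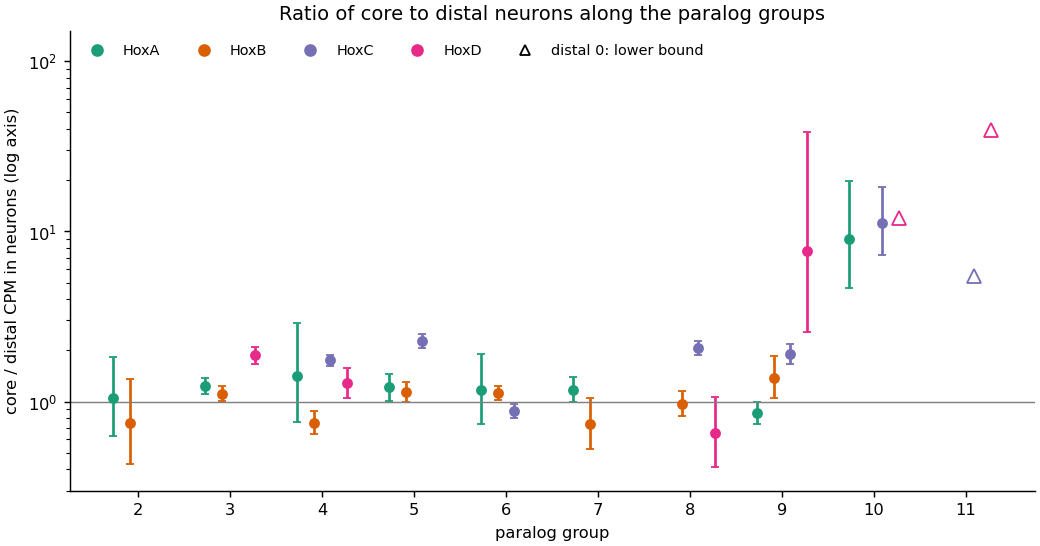
Ratio of core to distal neuron CPM (log axis) for each Hox gene with at least 2 CPM in 1 library, by paralog group. Colours give the cluster, and bars the exact conditional 95% intervals. Open triangles, called lower bound in the key, set the core level against 3 distal UMIs where distal neurons had 0. The exact lower limits are 4.32 for Hoxc11, 9.66 for Hoxd10 and 31.8 for Hoxd11. Groups 2 to 8 lie between 0.659 and 2.27, and Hoxd9 and all genes shown of groups 10 and 11 lie at 5.48 or above.

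The other Hox genes were compared between the libraries' neurons along the clusters. By the same rule, 1.39% of all genes assessed were higher in core neurons and 9.24% lower. Of 15 genes of groups 4 to 8, used from the neck to the trunk, 2 were at least 2-fold higher in core neurons and 0 lower, with a median log2 ratio of 0.22. Those 2 were Hoxc5, at 171 CPM in core neurons and 75.3 CPM in distal neurons (ratio 2.27, 2.06 to 2.51), and Hoxc8, at 183 CPM in core neurons and 88.5 CPM in distal neurons (ratio 2.07, 1.89 to 2.27). Of the other HoxC genes of these groups, Hoxc4 had a ratio of 1.75 (1.63 to 1.88) and Hoxc6 one of 0.884 (0.805 to 0.972). The annotated span of Hoxc5 takes in Hoxc8, Hoxc9 and part of Hoxc10, as described. Whether the higher values of Hoxc5 and Hoxc8 are separate from those of the members was not tested. The genes just outside the set on the HoxD and HoxB clusters were not higher in core neurons. Hoxd8 had 66 UMIs in core neurons and 27 in distal neurons (ratio 0.659, 0.415 to 1.07). Hoxb8 had 643 UMIs in core neurons and 178 in distal neurons (ratio 0.974, 0.824 to 1.16). Of the 5 genes of groups 1 to 3 that could be assessed, 0 passed 2-fold in either direction. Hoxd3 came nearest, with a ratio of 1.88 (1.68 to 2.11), close to that of Hoxc9. Genes of groups 12 and 13, used at the tail, had 3 UMIs in all in core neurons (2 of Hoxc12 and 1 of Hoxd12) and 0 in distal neurons.

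Whether the lumbar-level genes sat in neurons, glia or both was asked within the core library. Every core class with at least 45 nuclei carried them. Groups 10 and 11 had 47.1 CPM in clusters with both oligodendrocyte and neuron markers (618 nuclei), 65.1 CPM in oligodendrocyte progenitor-like nuclei (53 nuclei), 40.7 CPM in astrocyte-like nuclei (76 nuclei) and 55.5 CPM in fibroblast-like nuclei (123 nuclei), against 81.6 CPM in neurons. Myeloid-like nuclei (49 nuclei) had 60.1 CPM on 6 UMIs. Background-like nuclei had 72.9 CPM on 453 UMIs, 0.894 (0.805 to 0.991) of the neuron level.

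The same core classes also carried neuronal RNA. The 12 neuron markers, among them Rbfox3, Snap25, Gad1 and Slc17a6, summed to 8005 CPM in core neurons. Their level was 65.0% of that in the mixed clusters, 71.4% in progenitor-like, 72.6% in astrocyte-like, 68.6% in fibroblast-like, 84.2% in myeloid-like and 96.2% in background-like nuclei. Set per neuron-marker UMI, groups 10 and 11 in these classes stood at 0.687 to 1.12 times the neuron value, and each interval included 1. Pooling the oligodendrocyte lineage and astrocytes of the core library (756 nuclei, 67 UMIs), neurons had 1.68 times (1.32 to 2.18) the glial level of groups 10 and 11 and 1.52 times (1.48 to 1.56) the glial level of the neuron markers. Per neuron-marker UMI, the pooled glia had 0.902 (0.696 to 1.151) of the neuron value. The mixed clusters gave 618 of the pooled nuclei and 55 of the pooled UMIs of groups 10 and 11. Without the mixed clusters (138 nuclei, 12 UMIs, a pool chosen after seeing the data), neurons had 1.47 times (0.839 to 2.85) the glial level. That interval included 1, so a difference was not detectable. Per neuron-marker UMI, this smaller pool had 0.97 of the neuron value, with an interval that included 1. Across these core classes, group 10 and 11 RNA stood in the same proportion to neuron-marker RNA as in neurons, within counting error, and an additional glial share was not detectable at this depth. Core oligodendrocyte-like nuclei, 9 in all, held 2 UMIs and cannot be read by themselves.

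**Figure D3:**
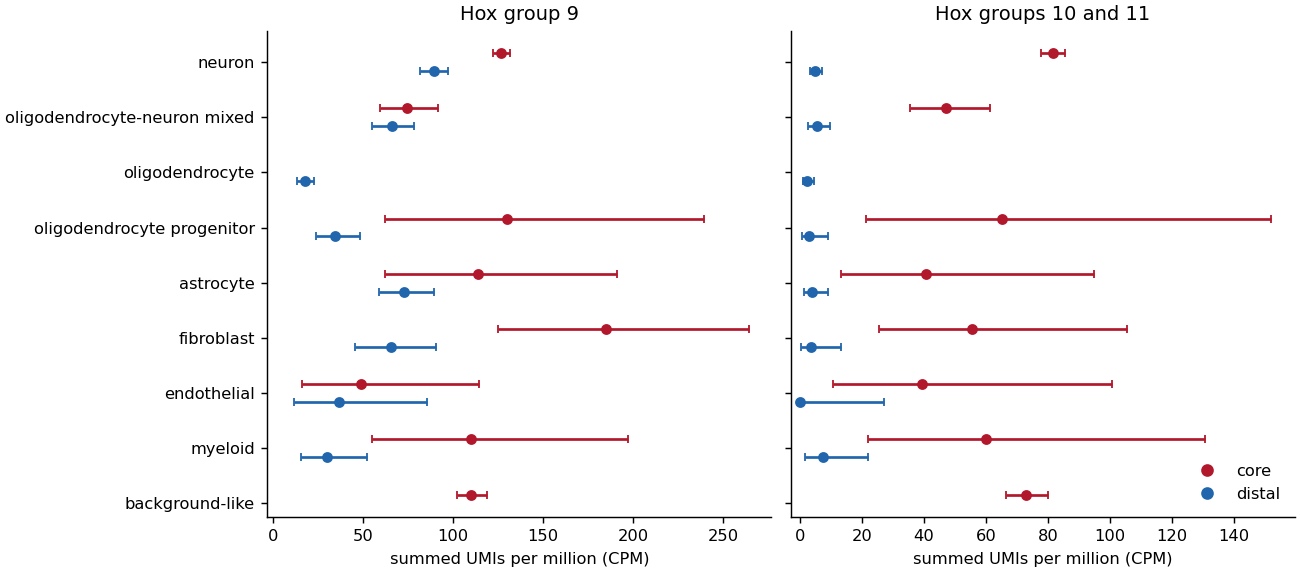
Summed CPM of group 9 (left panel) and of groups 10 and 11 (right panel) by class in the core (red, upper) and distal (blue, lower) library, with exact Poisson 95% intervals; classes with fewer than 45 nuclei in a library are not drawn. Groups 10 and 11 lie between 39.3 and 81.6 CPM in every core class drawn and at or below 7.47 CPM in every distal class drawn.

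Single members varied around this. Hoxd11 had 20 UMIs in the pooled core glia, 18 of them in the mixed clusters, and 1.12 (0.677 to 1.75) of the neuron value per neuron-marker UMI. Hoxc10 had 23 UMIs and 0.642 (0.405 to 0.970) of the neuron value, an interval below 1. In background-like nuclei the same measure was 0.711 (0.599 to 0.839) for Hoxc10, 1.45 (1.03 to 2.01) for Hoxd10 and 1.12 (0.912 to 1.36) for Hoxd11. Astrocyte-like core nuclei held 4 Hoxc10 UMIs and 1 Hoxa10 UMI and no UMI of group 11, on 122791 UMIs in all.

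At least 1 UMI of groups 10 and 11 was found in 16.7% (15.9 to 17.5) of core neurons (median 1911.5 UMIs) and 1.51% (1.02 to 2.15) of distal neurons (median 2348 UMIs). Myeloid-like nuclei held them in 10.2% (3.40 to 22.2) of core nuclei (5 of 49, median 1031 UMIs) and 0.885% (0.183 to 2.56) of distal nuclei (3 of 339, median 845 UMIs). Hoxa10 is also known from blood progenitors, and all 3 UMIs of the distal myeloid-like nuclei were Hoxa10. The 6 UMIs of the core myeloid-like nuclei were 2 of Hoxa10, 2 of Hoxc10 and 2 of Hoxd11. The source of these UMIs was not tested in either library. The share was 6.99% (6.36 to 7.66) of core background-like nuclei (median 934 UMIs) and 0.421% (0.169 to 0.865) of distal oligodendrocyte-like nuclei (median 1804.5 UMIs). After each nucleus was thinned to 1000 UMIs, the shares were 7.59% (7.03 to 8.18) of core neurons and 0.377% (0.152 to 0.776) of distal neurons. Thinned core background-like nuclei stood at 6.55% (5.52 to 7.70). Thinned distal oligodendrocyte-like nuclei stood at 0.265% (0.0724 to 0.678). Within each library the 2 thinned intervals overlapped, and the difference in shares was not tested. No class here is known to lack all of these genes, so the level that free RNA gives was not measured.

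**Figure D4:**
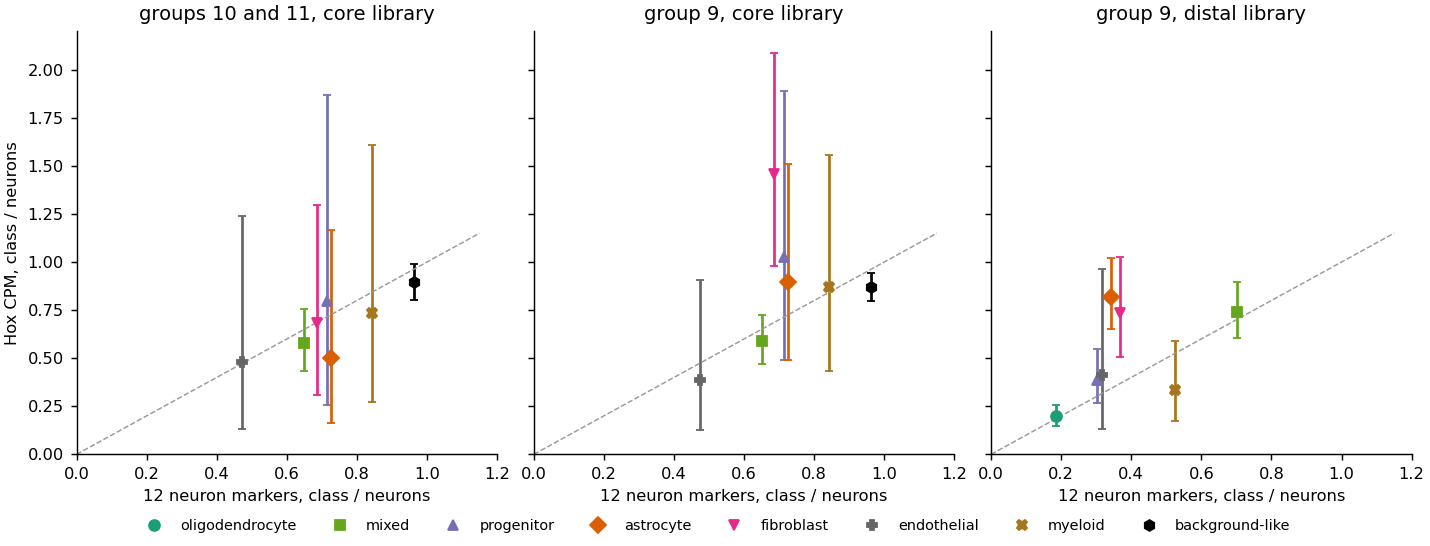
For each class, the Hox level relative to neurons of the same library (vertical axis, exact 95% intervals) against the level of 12 neuron markers relative to those neurons (horizontal axis), with a dashed line where both are equal; classes with at least 45 nuclei are drawn. Groups 10 and 11 lie along the line in the core library, and group 9 in distal astrocyte-like and fibroblast-like nuclei lies above it, at 0.817 and 0.733 against marker levels of 0.341 and 0.368.

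Group 9 departed from this in the distal library. Distal astrocyte-like nuclei (635 nuclei) had 73.0 CPM of group 9 on 94 UMIs, against 89.3 CPM in distal neurons, while their neuron markers stood at only 34.1% of the neuron level. Per neuron-marker UMI this was 2.40 (1.90 to 2.99) times the neuron value, and 2.35 to 3.62 over 8 other settings. Distal oligodendrocyte-like nuclei, at 17.7 CPM on 62 UMIs, had neuron markers at 18.5% and 1.07 (0.809 to 1.39) times the neuron value. Distal progenitor-like nuclei had 34.6 CPM on 34 UMIs and 1.28 (0.876 to 1.81) times the neuron value. Myeloid-like nuclei had 29.9 CPM on 12 UMIs and 0.635 (0.326 to 1.12) times the neuron value.

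The group 9 mix of distal astrocyte-like nuclei also differed from that of neurons. They held 56 Hoxa9 UMIs and 25 Hoxc9 UMIs, or 2.24 Hoxa9 UMIs for each of Hoxc9, while distal neurons held 231 and 240, or 0.963. Hoxa9 alone was at 43.5 CPM in distal astrocyte-like nuclei and 38.5 CPM in distal neurons. In the core library, astrocyte-like nuclei held 9 Hoxa9 and 5 Hoxc9 UMIs, while core neurons held 732 and 1690. The core counts are few. In pooled core glia without the mixed clusters (138 nuclei, a pool chosen after seeing the data), Hoxa9 had 11 UMIs and 2.21 (1.10 to 3.97) times the neuron value per neuron-marker UMI, and 0.969 (0.644 to 1.40) with the mixed clusters.

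Fibroblast-like nuclei were the other class above the neuronal measure for group 9. They carried more astrocyte-marker than fibroblast-marker RNA, at 2419 against 1271 CPM in core and 3521 against 1769 CPM in distal nuclei, while distal astrocyte-like nuclei had 4021 CPM of astrocyte markers. The part of astrocyte RNA in their group 9 level was not tested. Core fibroblast-like nuclei (123 nuclei) had 185 CPM on 30 UMIs, against 127 CPM in core neurons, and 2.13 (1.43 to 3.04) times the neuron value per neuron-marker UMI. Distal fibroblast-like nuclei (435 nuclei) had 65.4 CPM on 36 UMIs, against 89.3 CPM in distal neurons, and 1.99 (1.38 to 2.79) times the neuron value. When nuclei were classed individually from their own markers, the distal value was 0.922 (0.298 to 2.16), so that it no longer stood above neurons. Hoxb9 led the distal fibroblast-like mix, with 15 UMIs beside 11 of Hoxa9 and 10 of Hoxc9. Distal neurons had 62, 231 and 240 UMIs of these genes.

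Hoxd9 ran the other way between distal classes, on few counts. It had 9 UMIs in distal oligodendrocyte-like nuclei and 3 in distal neurons, 2.57 CPM and 0.49995 CPM, a ratio of 5.14 (1.28 to 29.5). No Hoxd9 UMI was read in distal astrocyte-like or fibroblast-like nuclei. In core neurons Hoxd9 stood at 3.86 CPM, as given, and in core background-like nuclei at 4.83 CPM. Groups 10 and 11 had 16 UMIs in distal glia without the mixed clusters, 2.31 (1.18 to 4.37) times the neuron value per neuron-marker UMI, where distal neurons themselves had 30 UMIs.

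The difference in groups 10 and 11 had the same direction in every neuron cluster that both libraries filled. Hox genes were left out of the clustering, and 13 neuron clusters had at least 30 nuclei in each library. In all 13, groups 10 and 11 had a higher CPM in core than in distal nuclei. The core values ran between 45.032 and 104 CPM and the distal values between 0 and 17.0 CPM. Among the 8 clusters with a distal UMI, the ratio lay between 5.08 and 14.3. The other 5 had 0 distal UMIs and stood at 1.31-fold to 6.81-fold the level of 3 distal UMIs. The lowest was cluster 22, on 13 core UMIs. Exact lower limits for these clusters ran from 0.923 in cluster 22 to 5.35 in cluster 14. The interval of cluster 22 took in equal levels, so a difference was not detectable in that cluster.

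**Figure D5:**
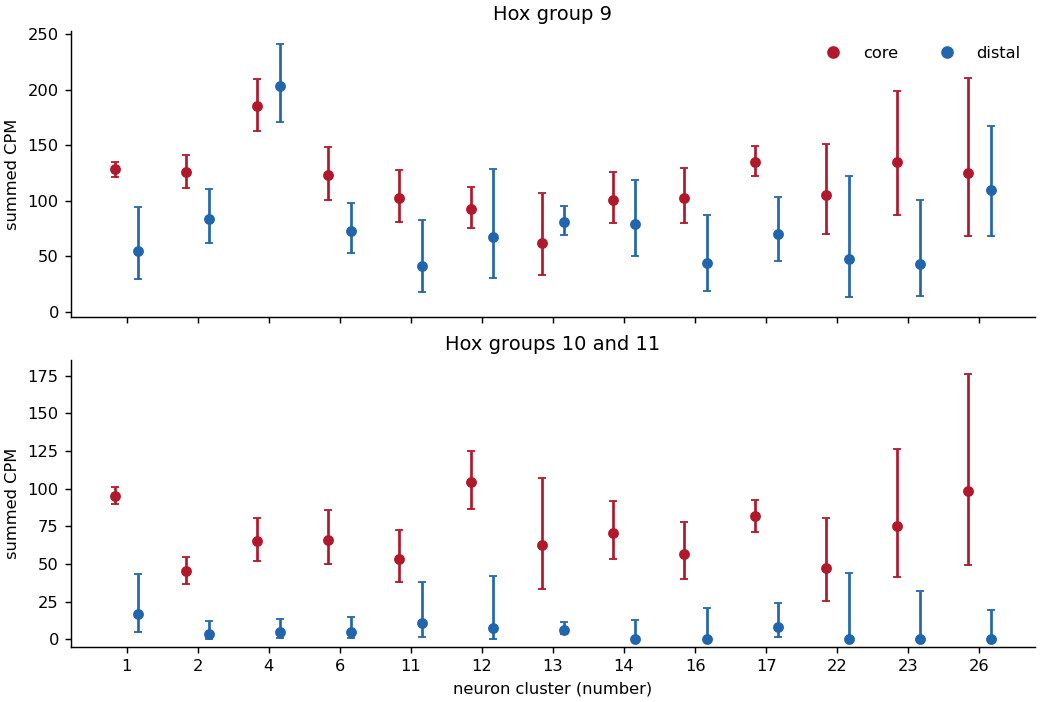
Summed CPM of group 9 (upper panel) and of groups 10 and 11 (lower panel) in 13 neuron clusters with at least 30 nuclei in both libraries, core in red (left) and distal in blue (right), with exact Poisson 95% intervals. Cluster 4 has the highest group 9 level in both libraries, 186 CPM in core and 204 CPM in distal nuclei, and the 13 core values of groups 10 and 11 lie at 45.032 CPM or above.

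Clusters also differed within a library. Cluster 12, led among others by Lmx1b and Tacr1, the substance P receptor gene, had 104 CPM (86.4 to 125) of groups 10 and 11 in core nuclei. Cluster 2, led among others by Pax2 and Pax8, factors of inhibitory spinal neurons, had 45.032 CPM (36.6 to 54.9). Cluster 4, led by Myo5b, Otof and Ptger3, had the highest group 9 level in both libraries: 186 CPM (163 to 210) in core nuclei and 204 CPM (171 to 241) in distal nuclei, a ratio of 0.911 (0.735 to 1.13). In that cluster groups 10 and 11 had 87 UMIs in core nuclei and 3 in distal nuclei (ratio 14.3, 4.72 to 70.5). Cluster 13, with Chat among its leading genes, held 13 UMIs of each set in 48 core nuclei. In its 428 distal nuclei it held 153 UMIs of group 9 and 12 of groups 10 and 11. Over all distal neurons, 41 nuclei held a UMI of Chat, Slc5a7 or Slc18a3, so the cluster is not called cholinergic here.

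For the group sums, core levels did not differ beyond counting error between inhibitory and excitatory nuclei. Core nuclei with inhibitory genes only (Gad1, Gad2, Slc32a1 or Slc6a5, 2230 nuclei) had 84.3 CPM of groups 10 and 11, against 78.9 CPM in core nuclei with Slc17a6 only (784 nuclei), a ratio of 1.07 (0.901 to 1.28). For group 9 the same ratio was 1.08 (0.941 to 1.24), and of its genes Hoxc9 had a ratio of 1.22 (1.02 to 1.48) and Hoxa9 one of 0.790 (0.609 to 1.03). Core neurons with Chat, Slc5a7 or Slc18a3 (116 nuclei), the cholinergic genes of motor neurons among others, had 49.3 CPM (32.7 to 71.2) of groups 10 and 11 on 28 UMIs and 127 CPM (99.1 to 159) of group 9. In distal neurons, groups 10 and 11 had 4.33 CPM on 7 UMIs in inhibitory and 5.79 CPM on 5 UMIs in excitatory nuclei.

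Detection in the same nucleus was described for core neurons. Of 9086, 3285 (36.2%) held a UMI of any member and 715 held 2 or more members, with at most 6 in 1 nucleus. Among the 1515 with a UMI of groups 10 and 11, 30.6% (28.2 to 32.9) also held group 9, against 29.7% of nuclei without groups 10 and 11 at matched depth. Pairs that stood further apart were chosen after their values were seen. Hoxb9 was found in 6.19% (4.50 to 8.28) of nuclei with Hoxa9, against 3.63% at matched depth without it. Hoxa10 was found in 6.05% (4.37 to 8.11) of nuclei with Hoxa9, against 3.70% without it. Hoxd10 was found in 3.03% (1.95 to 4.47) of nuclei with Hoxc10, against 1.63% without it. The last pair rests on 24 nuclei.

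Genes that work with or near the Hox proteins were mostly within 2-fold. All 9 Hox cofactors, the Pbx, Meis and Pknox proteins that bind DNA beside Hox proteins, were within 2-fold between the libraries' neurons. Meis1 had 160 CPM in core and 221 CPM in distal neurons (ratio 0.725, 0.680 to 0.773). Of 15 regulators of Hox chromatin and axis that could be assessed, 0 were at least 2-fold higher and 2 at least 2-fold lower. Over all genes assessed, 1.39% were higher and 9.24% lower. Kdm6a, a histone demethylase of the repressive mark on Hox clusters, had 64.0 CPM in core and 128 CPM in distal neurons (ratio 0.4998, 0.457 to 0.546). Gdf11, a ligand that sets the trunk-to-tail boundary in the embryo, had 66 UMIs in core and 36 in distal neurons (ratio 0.494, 0.324 to 0.764). Under TMM scaling every ratio rises by a factor of 1.10, which brings both inside the 2-fold limit. Ezh1 and Ezh2, subunits of Polycomb repressive complex 2, had core over distal ratios of 0.987 (0.857 to 1.14) and 0.788 (0.676 to 0.922).

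Among the motor column genes, 7 of 13 could be assessed, 1 was higher and 1 lower, against 1.39% and 9.24% of all genes assessed. Etv4, a factor of some limb-innervating motor pools in the embryo, had 28.7 CPM in core and 12.3 CPM in distal neurons (ratio 2.33, 1.83 to 3.01). Slc5a7, the choline transporter gene, had 55 UMIs in core and 42 in distal neurons (ratio 0.353, 0.232 to 0.541). Foxp1, a Hox-dependent factor of limb motor columns in the embryo, had 382 CPM in core and 362 CPM in distal neurons (ratio 1.05, 1.005 to 1.104).

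The long noncoding RNAs of the Hox clusters differed in both directions. Of 11 that could be assessed, 3 were at least 2-fold higher in core neurons (Gm53, Hotair and Hoxa11os) and 3 at least 2-fold lower (Haglr, Hoxb3os and Hoxd3os1). The shares over all genes assessed were 1.39% and 9.24%. Hoxa11os, antisense to Hoxa11, had 117 UMIs in core and 0 in distal neurons, 10.5-fold the level of 3 distal UMIs (lower exact limit 8.42). Hotair, transcribed from the HoxC cluster beside Hoxc11, had 49 UMIs in core and 0 in distal neurons, 4.403-fold the level of 3 distal UMIs (lower exact limit 3.45). Gm53 had 22.7 CPM in core and 9.17 CPM in distal neurons (ratio 2.47, 1.87 to 3.33). In the other direction, Hoxb3os had 7.82 CPM in core and 15.8 CPM in distal neurons (ratio 0.494, 0.382 to 0.641). Haglr, at the HoxD cluster, had 41 UMIs in core and 53 in distal neurons (ratio 0.209, 0.135 to 0.319). Hoxd3os1 had 9.07 CPM in core and 18.5 CPM in distal neurons (ratio 0.491, 0.387 to 0.624). TMM scaling takes Hoxb3os and Hoxd3os1 inside the 2-fold limit.

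Across 15 class-by-library units with at least 50 nuclei, the genes whose log2(CPM + 5) was most like that of groups 10 and 11 included, among 11520 candidates, Prss22 (Pearson r 0.955), Ehmt2 (0.897), Gprasp1 (0.895) and Pi4ka (0.893). Prss22, a serine protease gene, had 25.4 CPM in core and 0.333 CPM in distal neurons. Ehmt2, a histone methyltransferase gene, had 79.2 CPM in core and 51.8 CPM in distal neurons. Prss22 also led the background-like cluster, together with Hoxd11. The units come from 2 libraries, so they are not independent points.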

How the data were processed

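The deposited matrices give unnormalized UMI counts for every gene in every barcode, and name Cell Ranger 7.1.0 as their source, per the file headers. Seurat and 2 builds, mm10 and GRCh38, also appear in the submitters' processing notes, with no role. Alignment settings are not stated there. Of 32285 feature identifiers, 32158 (99.6%) have an entry in GENCODE M21, the source of all gene positions (GRCm38).

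A minimum of 300 genes and a maximum of 5% mitochondrial UMIs removed 2 core and 9 distal barcodes. Scrublet in scanpy 1.11.5 called 0 doublets in both libraries, with thresholds above its highest scores, so the caller had not worked and no doublets were removed. After scaling each nucleus to 10000 UMIs and taking logs, clusters were found. From 2000 variable genes, chosen without Hox genes, 40 principal components gave a graph of 15 neighbours, clustered with leidenalg 0.10.2 at resolution 1 (Python 3.11.15, scikit-learn 1.9.0). Each cluster of at least 20 nuclei took the class whose summed marker CPM stood highest relative to that class's best cluster. Clusters near random draws from a single profile (dispersion under 1.2) were called background-like. Clusters above 50% of the neuron peak and 30% of the oligodendrocyte peak were called mixed. Clusters led by blood, mitochondrial, Schwann, liver or other-class genes stayed unnamed. The class rules were chosen with the data in view. The members, lists and markers were chosen with earlier results of these data known.

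UMIs were summed per class and library and divided by the class total (CPM). Poisson, Clopper-Pearson and conditional 95% intervals were computed with scipy 1.17.1. A fold against 0 UMIs uses 3 counts. Thinning to 1000 UMIs left out 5181 core and 1507 distal nuclei. TMM factors came from edgeR 4.0.16 (R 4.3.3). The ratio and its 2-fold rule were tested on simulated data. All members were named, and from every list up to 3 genes a direction with the largest ratios and at least 10 CPM in 1 library, plus the 5 genes most like groups 10 and 11. Some results of this rule are not reported here. Genes named beyond this rule (Hoxc4, Hoxc6, Hoxd8, Hoxb8, Hoxc12, Hoxd12, Meis1, Gdf11, Ezh1, Ezh2, Slc5a7, Foxp1, Hotair, Hoxa11os, Haglr) were chosen after their values were seen.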

Additional observations from a re-analysis of the deposited data

How the results depend on the processing

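Of 89 values recomputed under other settings, 77 moved by less than their counting interval, 11 moved further and 1 changed direction. The core over distal ratio in neurons lay between 1.40 and 1.56 for group 9 and between 14.1 and 21.2 for groups 10 and 11, and the count of members at least 2-fold higher was 6 or 7. The neuron over glia ratio depended on which nuclei counted as glia. For groups 10 and 11 in the core library it was 1.13 with at least 500 genes per nucleus, 2.32 at resolution 2.0 and 2.30 with nuclei classed individually, against 1.68. For group 9 in the core library it was 1 with at least 500 genes per nucleus, 2.04 with nuclei classed individually and 1.14 without mixed clusters, against 1.58, and in the distal library 2.50 with nuclei classed individually and 2.72 without mixed clusters, against 2.16. Per neuron-marker UMI, group 9 in distal astrocyte-like nuclei was 3.62 times the neuron value with nuclei classed individually and 3.01 times after thinning, in core fibroblast-like nuclei 3.79 times with nuclei classed individually, and in distal fibroblast-like nuclei 0.922 times with nuclei classed individually, the change of direction. The cause was not tested. The settings without shared barcodes, by clusters filled in both libraries, without mixed clusters and with 6 of the 12 neuron markers, and all settings for values per neuron-marker UMI, were chosen after seeing the data. With Hox genes allowed into the clustering, 0 of them came among the variable genes, so this setting did not test their effect. Its classes differed all the same, with no core mixed nuclei against 618, 477 core oligodendrocyte-like nuclei against 9 and 2391 distal neurons against 1983, and the cause was not tested. No paired analysis was possible because each region has 1 library and the labels carry no replicate number. Few nuclei limit every core class outside neurons, mixed and background-like clusters.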
